A study of Homo sapiens with 46 samples.

Results

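MT-CO1, MT-CO2 and MT-CO3 are the mRNAs of the mtDNA-encoded subunits of complex IV, COX1, COX2 and COX3. They were taken by name from the deposited table of gene counts, where they make up 3 of the 58735 genes listed, and all 3 passed the filter on low counts, as did 20272 genes in all. They were followed in HEK293T cells, a human embryonic kidney line that the study describes as HEK293-Flp-In T-Rex, after transfection with 1 of 11 chimeras for 48 hours. A chimera is a morpholino, an uncharged antisense oligomer, joined by click chemistry to pCox4, the import signal of a yeast mitochondrial protein. Each chimera was named for the mRNA it targeted (ATP6, ATP8, COX1, COX2, COX3, CYTB, ND1, ND2, ND3, ND4L or ND5) and was used at 2 µM, and the control cells received pCox4 without a morpholino, so every group shared the presequence and the transfection. The control and each treatment had 4 libraries, except for COX2 (replicates 2, 3 and 4) and ND2 (replicates 1, 3 and 4), which had 3, giving 46 libraries. The study describes them as biological replicates, with replicates 1 and 2 (batch 1) and replicates 3 and 4 (batch 2) made on different days with different reagents. All data come from this cell line and this time point, and the translation of the mRNAs was not measured in these libraries.

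Complex IV, or cytochrome c oxidase, is the terminal enzyme of the respiratory chain. It passes electrons from cytochrome c to oxygen and pumps protons. COX1 holds the haem groups and the copper centre at which oxygen is reduced, COX2 holds the copper centre that takes electrons from cytochrome c, and COX3 carries no redox centre and packs against COX1. All are made on mitochondrial ribosomes, while the remaining subunits come from nuclear genes. The mtDNA is transcribed into long precursors from both strands, and most mRNAs are released when the tRNAs between them are cut out. MT-CO2 lies between tRNA genes on its own strand, MT-CO3 follows MT-ATP6 with no tRNA between them, and MT-CO1 has tRNA genes of the opposite strand on either side.

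The sequence targeted by each chimera is shown because the comparisons below set each mRNA against the chimera directed at it. Each line gives the first 30 bases of the coding sequence from the start codon, 5′ to 3′, read from the GENCODE 29 transcripts, and the capitals mark the stretch that the study names as the target of the chimera.
MT-CO1: ATGTTCGCCGACCGTTGACtattctctaca
MT-CO2: ATGGCACATGCAGCGCAAGTAGGtctacaa
MT-CO3: aTGACCCACCAATCACATGcctatcatata
On GRCh38 the genes span chrM:5904-7445 (MT-CO1, ENSG00000198804), chrM:7586-8269 (MT-CO2, ENSG00000198712) and chrM:9207-9990 (MT-CO3, ENSG00000198938). The targeted stretches are on the plus strand of the mitochondrial chromosome, at chrM:5904-5922 for MT-CO1 (19 bases), chrM:7586-7608 for MT-CO2 (23 bases) and chrM:9208-9225 for MT-CO3 (18 bases). All lie at the start of the coding exon, which begins at the first annotated base of the gene, and the COX1 and COX2 targets include the whole start codon while the COX3 target begins at its second base. None of the 12 other mtDNA mRNAs held an exact copy of a target: the closest stretch differed from the COX1 target at 6 positions (in MT-ND4), from the COX2 target at 9 (in MT-CO3) and from the COX3 target at 5 (in MT-ND4). Among the 110 annotated nuclear pseudogenes of the members, exact copies were found in MTCO1P12, MTCO2P12 and MTCO3P12, 1 for each target.

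The libraries held 18876395 to 100698084 counts, with a median of 23413171, and COX3 replicate 4 was the deepest by far, since the next held 28121898. The kidney line's VIM, KRT8 and KRT18 were at or above 84.3 CPM in every library, where CPM is the count per 1000000 reads after TMM normalization, PAX2 was at 4.97 to 9.82 CPM and NEFM at 0.461 to 2.03 CPM. The markers of other cell types (ALB, HBB, PTPRC, MYH7 and COL3A1) reached at most 1.42 CPM. The members were counted deeply, at 92914 to 1225322 reads for MT-CO1, 82776 to 580569 for MT-CO2 and 82648 to 439141 for MT-CO3, so that counting error was small beside the spread between replicates. Genes of mtDNA took 3.8% to 5.34% of the counts. Per kilobase of gene, MT-CO1 (7783 CPM per kb in the control), MT-CO2 (6883) and MT-CO3 (6762) took ranks 1, 2 and 3 among the 13 mtDNA mRNAs. They were ahead of MT-ATP6 at 4528. This scale allows for gene length but not for reads that genes share with nuclear copies. In bulk RNA, fewer copies per cell and fewer cells that hold the mRNA cannot be told apart.

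**Figure D1:**
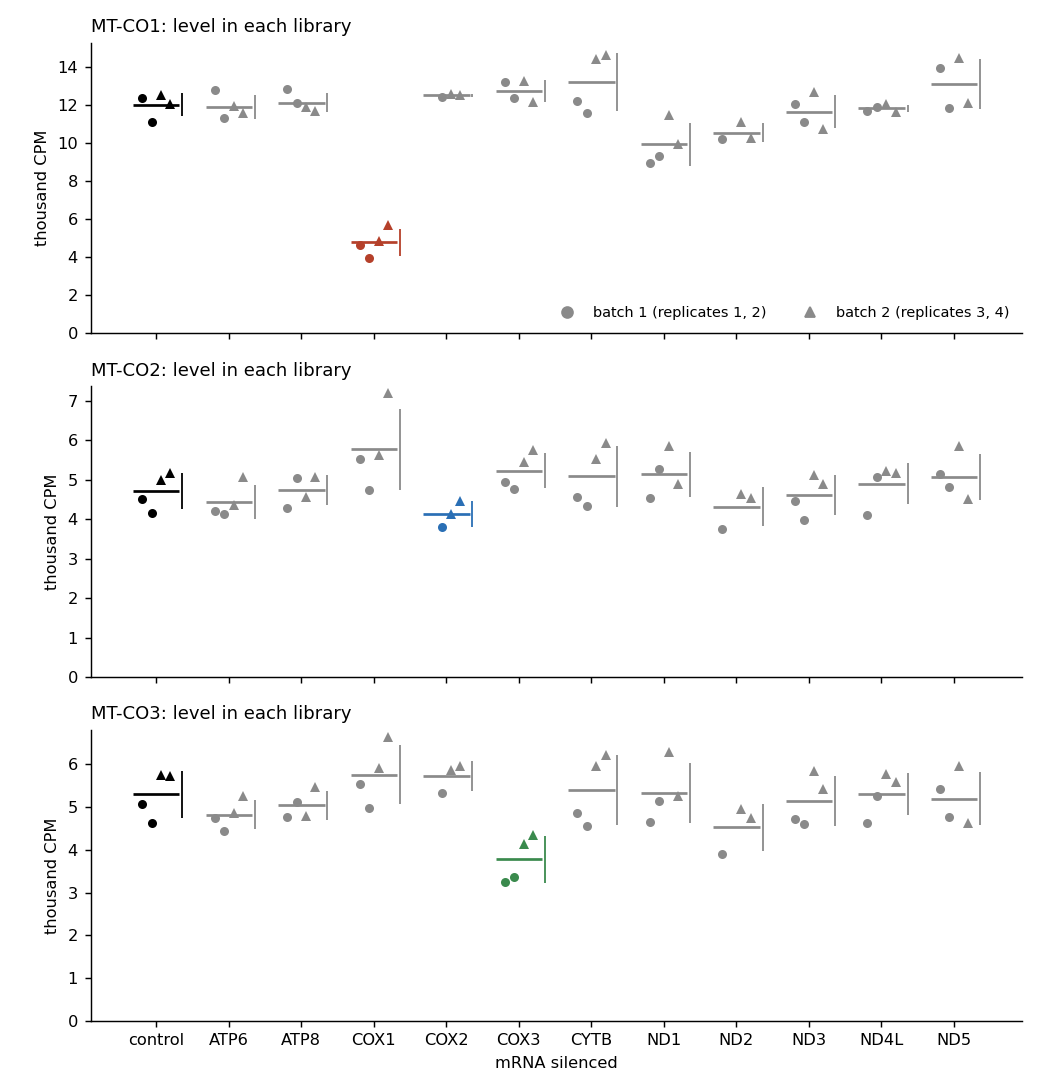
Level of each member in CPM (TMM-normalized, y axes from 0 in units of 1000 CPM) in every library, by the mRNA silenced. Circles are batch 1, triangles batch 2, horizontal lines the group means and vertical lines ± 1 SD; the coloured group received the chimera directed at that member. The 4 COX1-silenced libraries lie between 3961 and 5661 CPM of MT-CO1, while the 4 controls lie between 11116 and 12487.

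MT-CO1 was the member that changed most under its own chimera. Its controls stood at 12360, 11116, 12487 and 12044 CPM in replicates 1 to 4, and the COX1-silenced libraries at 4626, 3961, 4845 and 5661 CPM. The groups did not overlap, and the silenced libraries lay at 33.7% to 46.2% of the controls of its batch. The log2 fold change was -1.33 (SE 0.069, 95% interval -1.47 to -1.19, adjusted p = 2.25e-21, edgeR quasi-likelihood test over all genes, n = 4 and 4), against a background of 0.0543% of genes called in this contrast in either direction. It was -1.46 in batch 1 alone and -1.23 in batch 2 alone, and the difference between the batches did not pass the test (0.23, adjusted p = 0.823, edgeR).

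MT-CO3 fell less. Its controls stood at 5077, 4633, 5756 and 5741 CPM, and the COX3-silenced libraries at 3260, 3364, 4137 and 4351 CPM. All silenced libraries lay below all controls, at 67.2% to 75.7% of the controls of their batch, although both groups were higher in batch 2 than in batch 1. The log2 fold change was -0.49 (SE 0.065, 95% interval -0.62 to -0.36, adjusted p = 9.99e-06, edgeR), where 0.306% of genes were called. Without the batch term the same difference, -0.49, did not pass the test (adjusted p = 0.227, edgeR).

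MT-CO2 gave the smallest difference. The controls stood at 4503, 4163, 4991 and 5176 CPM, and the COX2-silenced libraries, replicates 2, 3 and 4, at 3806, 4123 and 4467 CPM. The highest silenced library lay within the range of the controls, but each was below both controls of its own batch, at 81.1% to 87.9% of their mean. The log2 fold change of -0.22 (SE 0.080, 95% interval -0.38 to -0.06, unadjusted p = 0.00803) did not pass the adjustment over all genes (adjusted p = 0.182, edgeR), in a contrast where 0.469% of genes were called. It passed in 3 of the 19 alternatives tried, with the mtDNA genes other than the members as library size (-0.38, adjusted p = 0.000192), without the filter on low counts (-0.22, adjusted p = 2.70e-05) and with the 7 libraries compared alone in the edgeR fit (-0.22, adjusted p = 0.0144).

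The level of each mRNA under its own chimera was also compared without any control library, against the mean of the other 10 treatments. MT-CO1 was lower by -1.32 (SE 0.057, adjusted p = 4.77e-25, edgeR) and MT-CO3 by -0.46 (SE 0.050, adjusted p = 2.77e-08, edgeR), both in contrasts where 0.0543% of genes were called. MT-CO2 was at -0.28 (SE 0.064, unadjusted p = 6.54e-05), which did not pass in edgeR (adjusted p = 0.147, 0.00987% of genes called) and did in DESeq2 (adjusted p = 0.0453). Set against each other per library, the drop was deeper for MT-CO1 (-1.34 ± 0.18 on the log2 scale relative to the controls of the batch, SD, n = 4) than for MT-CO3 (-0.49 ± 0.07, SD, n = 4), with no overlap (exact permutation test, two-sided, p = 0.0286, the smallest that 4 against 4 allows, 0.0571 after adjustment over the 3 comparisons). MT-CO2 (-0.22 ± 0.07, SD, n = 3) did not overlap either, and the exact permutation test of 3 against 4 libraries gave the smallest p it allows, 0.0571, for both comparisons.

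**Figure D2:**
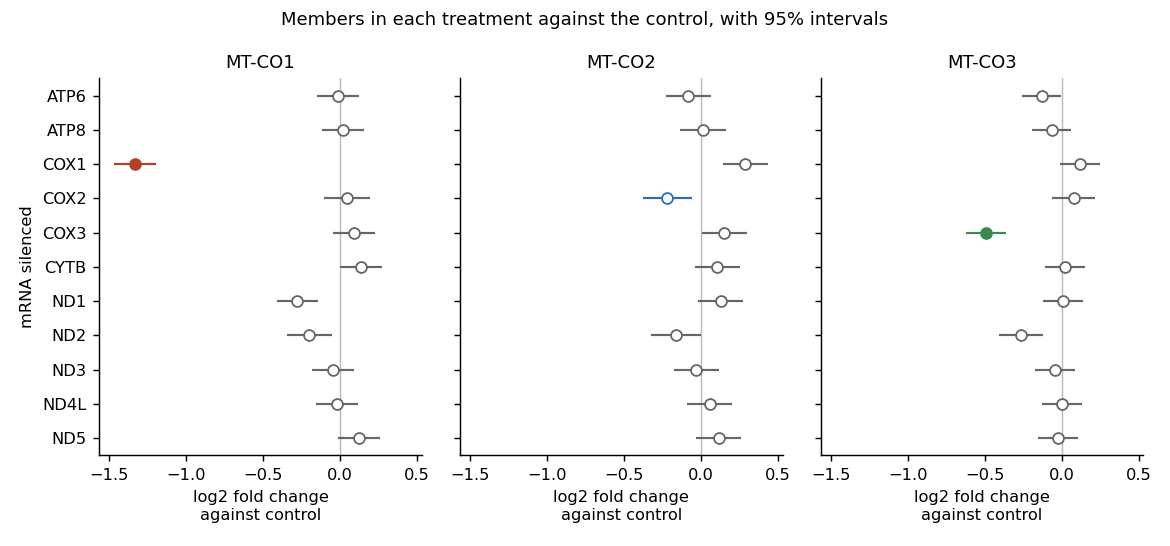
Log2 fold change of each member (panels) against the control in the 11 treatments (y axis), with 95% intervals from the edgeR fit. Filled points passed an adjusted p of 0.05, and colour marks the chimera directed at that member. The filled points are MT-CO1 after COX1 silencing (-1.33) and MT-CO3 after COX3 silencing (-0.49); the remaining intervals lie between -0.41 and 0.44.

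Ratios between the members within a library do not depend on how libraries were scaled. Relative to the controls of the batch, the log2 ratio of MT-CO1 to MT-CO2 was -1.69, -1.69, -1.49 and -1.61 in the COX1-silenced libraries, while it lay between -0.62 and 0.33 in the 38 libraries of the other treatments. The ratio of MT-CO2 to MT-CO3 was -0.32, -0.33 and -0.24 in the COX2-silenced libraries, and -0.05 to 0.77 in the 39 others. The COX2-silenced libraries were thus the lowest of all treated libraries in this ratio. They were the highest in the ratio of MT-CO1 to MT-CO2, at 0.22 to 0.33 against at most 0.18. After COX3 silencing the ratios of MT-CO1 and of MT-CO2 to MT-CO3 were 0.39 to 0.75 and 0.57 to 0.77, above all 38 other treated libraries, which reached 0.29 in both. In each of the 6 comparisons the treatment directed at a member of the ratio did not overlap with the rest (two-sided exact permutation tests, p = 1.79e-05 for COX1 and COX3 and 0.000174 for COX2, the smallest that these group sizes allow, adjusted over 6 tests to 2.68e-05 and 0.000174). The tests permuted single libraries across several treatments, so p does not measure the spread between treatments. The ND1-silenced libraries were also set apart. They were at -0.46, -0.62, -0.30 and -0.24 for MT-CO1 to MT-CO2, and the next lowest outside COX1 silencing was -0.21 (ND4L replicate 2). For MT-CO1 to MT-CO3 they were at -0.33, -0.42, -0.23 and -0.17, and the next was -0.11 (ND3 replicate 4). A ratio shows unequal change of its members and not which of them moved.

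**Figure D3:**
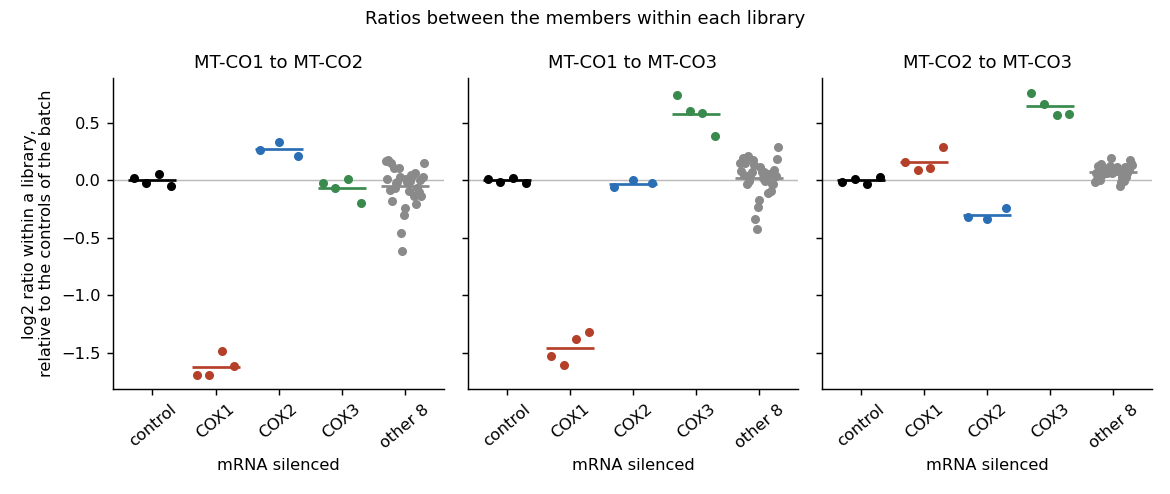
Log2 ratio of counts per kb of 2 members within each library (points), relative to the mean of the control libraries of its batch, in the control, the COX1, COX2 and COX3 treatments and the other 8 treatments combined; lines are means. COX1 silencing takes the ratios of MT-CO1 to between -1.69 and -1.32, and COX2 silencing takes MT-CO2 to MT-CO3 to between -0.33 and -0.24.

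The share of each member in the mtDNA mRNA pool was lower under its own chimera, but not under that chimera alone. MT-CO1 supplied 29.6% ± 1.84 of the reads of the 13 mtDNA mRNAs in the control (SD, n = 4) and 12.7% ± 0.415 after COX1 silencing (SD, n = 4). MT-CO3 supplied 13.03% ± 0.330 in the control and 9.12% ± 0.771 after COX3 silencing (SD, n = 4 each), and MT-CO2 11.6% ± 0.222 in the control (SD, n = 4) and 9.63% ± 0.225 after COX2 silencing (SD, n = 3). In each case the lowest control lay above the highest silenced library. Shares outside the range of the controls were also seen under other chimeras. MT-CO1 was lower after ND1 silencing (24.2% ± 0.772, SD, n = 4). MT-CO2 and MT-CO3 were lower after ND2 silencing (10.9% ± 0.198 and 11.4% ± 0.197, SD, n = 3), and MT-CO3 after ATP6 silencing (12.3% ± 0.179, SD, n = 4). MT-CO2 was higher after COX1, COX3 and ND1 silencing, and MT-CO3 after COX1 silencing. All 3 members together made up 54.2% ± 1.70 of these reads in the control and 43.2% ± 1.26 after COX1 silencing. They made up 52.1% ± 1.82 after COX2, 52.7% ± 1.40 after COX3, 49.7% ± 1.05 after ND1 and 49.0% ± 1.92 after ND2 silencing.

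Under chimeras directed at other mRNAs the members stayed within a narrow band. The 30 comparisons of a member with the control under a chimera for another mRNA lay between -0.28 and 0.29 on the log2 scale. Of these, 17 were higher and 13 lower. None passed the adjusted threshold in the edgeR model with the batch term, while 7 had an unadjusted p under 0.05. Between 3.31% (ND3) and 14.1% (ND4L) of all genes had an unadjusted p under 0.05 in the same model. After ND2 silencing, where every member did, the share was 4.91%. Up to 6 of the 30 passed the adjusted threshold under the other settings, all 6 without the filter on low counts and 3 with only the libraries compared. The share of all genes called against the control, beside these counts, was 0.00987% for ATP6, 0.0641% for ATP8, 0.0543% for COX1, 0.469% for COX2, 0.306% for COX3, 0.548% for CYTB, 0.0888% for ND1, 0.0247% for ND2, 0.00987% for ND3, 0.148% for ND4L and 0.158% for ND5. DESeq2 called 1 of the 30, MT-CO1 after ND1 silencing. Averaged over the 10 other treatments, MT-CO1 differed from the control by -0.02 (SE 0.050), MT-CO2 by 0.06 (SE 0.055) and MT-CO3 by -0.03 (SE 0.048), with adjusted p of 0.938, 0.742 and 0.859 (edgeR) and 0.271%, 0.0987% and 0.187% of all genes called.

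MT-CO1 after ND1 silencing was the lowest of these values. The 4 libraries stood at 8924, 9300, 11475 and 9957 CPM, each below both controls of its batch. The log2 fold change was -0.28 (SE 0.068, unadjusted p = 0.000146, adjusted p = 0.0784, edgeR), and in the same libraries MT-CO2 (0.13) and MT-CO3 (0.01) were not called. MT-CO1 passed in 6 of 20 alternatives, among them mtDNA library sizes (-0.37, adjusted p = 0.00119, edgeR), only the libraries compared (-0.28, adjusted p = 0.00708, edgeR) and DESeq2 (-0.28, adjusted p = 0.0262). After ND2 silencing all 3 members were low together, MT-CO1 by -0.20 (SE 0.074), MT-CO2 by -0.16 (SE 0.080) and MT-CO3 by -0.26 (SE 0.070), and every library was below the controls of its batch, but the adjusted p were 0.998, 0.998 and 0.647 (edgeR, n = 3 and 4). Low values after ND2 silencing were not particular to the members. Of the other 10 mtDNA mRNAs 1 was above the control (median -0.11), and the mitochondrial rRNAs MT-RNR1 and MT-RNR2 were at -0.25 and -0.36. The highest of the members' values under chimeras for other mRNAs was MT-CO2 after COX1 silencing. Its libraries were at 5517, 4726, 5622 and 7188 CPM, all above both controls of their batch. Its log2 fold change of 0.29 (SE 0.073, unadjusted p = 0.000251) did not pass either (adjusted p = 0.182, edgeR), with library sizes taken from the other mtDNA genes it was 0.07, and of 20 alternatives it passed without the filter on low counts alone (0.28, adjusted p = 6.31e-11, edgeR). MT-CO2 after COX3 silencing (0.15, SE 0.073) and MT-CO3 after ATP6 silencing (-0.13, SE 0.064) completed the comparisons under an unadjusted p of 0.05 (adjusted p = 0.461 and 0.545, edgeR).

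Whether the 10 other treatments differed among themselves was asked with an F test in the same fit, chosen after the values were seen. MT-CO1 differed (F = 7.10, adjusted p = 0.000909, 0.296% of genes called) and so did MT-CO2 (F = 5.70, adjusted p = 0.00897, 0.291% called), while MT-CO3 was at the threshold (F = 4.71, adjusted p = 0.0499, edgeR, 0.276% called). The call was lost in 2 of 50 alternatives for MT-CO1, 5 for MT-CO2 and 36 for MT-CO3, and without the batch term none of them passed. Each treatment was then set against the mean of the other 9 not directed at the same member, a comparison also added after the values were seen, and 2 of these 30 passed, with 0.102% of genes called over all of them. MT-CO1 was lower after ND1 silencing (-0.29, adjusted p = 0.00279, edgeR) and MT-CO2 was higher after COX1 silencing (0.26, adjusted p = 0.0230, edgeR). The former did not pass without the batch term, in batch 2 alone (-0.19) or without ND1 replicate 1 or 2 (-0.25 and -0.27). The latter did not pass without the batch term, in either batch alone (0.19 and 0.32), with mtDNA library sizes (0.08), without COX1 replicate 1 or 4 (0.24 and 0.17) or without ND2 replicate 1 (0.25).

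Ordered by the mean log2 level relative to the controls of the batch, MT-CO1 ran from CYTB (0.13) and ND5 (0.12) through COX3, COX2, ATP8, control, ATP6, ND4L and ND3 to ND2 (-0.20), ND1 (-0.28) and COX1 (-1.34). With a pooled SD of 0.11, neighbours in this order were closer than the spread except between ND3 and ND2 and between ND1 and COX1. MT-CO2 ran from COX1 (0.28) and COX3 (0.15) through ND1, ND5, CYTB, ND4L, ATP8, control, ND3 and ATP6 to ND2 (-0.17) and COX2 (-0.22), and with a pooled SD of 0.12 a single step, from COX1 to COX3, exceeded the spread. MT-CO3 ran from COX1 (0.12) and COX2 (0.07) through CYTB, ND1, ND4L, control, ND5, ND3, ATP8 and ATP6 (-0.13) to ND2 (-0.27) and COX3 (-0.49), with the last 2 steps above the pooled SD of 0.10. The cognate treatment was thus the lowest of the 12 conditions for every member. For MT-CO2 the step from ND2 to COX2 was within the spread.

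The remaining conditions had the following levels in CPM (mean ± SD, n = 4 each). MT-CO1 stood at 11885 ± 622 after ATP6, 12112 ± 501 after ATP8, 13180 ± 1534 after CYTB, 11632 ± 874 after ND3, 11800 ± 195 after ND4L and 13072 ± 1316 after ND5 silencing. MT-CO2 stood at 4439 ± 432, 4730 ± 385, 5086 ± 768, 4612 ± 506, 4893 ± 523 and 5074 ± 581 CPM in the same order, and MT-CO3 at 4828 ± 341, 5040 ± 336, 5401 ± 813, 5147 ± 591, 5310 ± 501 and 5194 ± 618 CPM. Relative to the controls of the batch, these means lay between 91.3% and 109.6%. Between treatments directed at complex IV, MT-CO1 was at 12482 ± 86.3 CPM after COX2 silencing (SD, n = 3) and 12738 ± 581 after COX3 silencing (SD, n = 4), MT-CO2 at 5228 ± 449 after COX3 silencing (SD, n = 4), and MT-CO3 at 5764 ± 693 after COX1 (SD, n = 4) and 5727 ± 351 after COX2 silencing (SD, n = 3).

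MT-CO2 and MT-CO3 varied together where no complex IV mRNA was targeted. Over the 35 libraries without the COX1, COX2 and COX3 treatments, centred within batch, Pearson's r was 0.89 for MT-CO2 with MT-CO3, 0.48 for MT-CO1 with MT-CO3 and 0.35 for MT-CO1 with MT-CO2. Over all 46 libraries r was 0.31, -0.24 and -0.31. The points share the library, its depth and its scaling, and no test was attached. By the same measure over all 46 libraries and the 10427 genes with a mean of at least 10 CPM, the gene most like MT-CO1 was its nuclear copy MTCO1P12 (r = 0.84), ahead of MYLIP (0.56) and FUK (0.49). MT-CO2 was most like MT-ND4 (0.62), TMEM97 (0.58) and CPVL (0.58), with AIG1 (0.55) as the next gene outside mtDNA, and MT-CO3 was most like MT-ATP6 (0.77), the nuclear copy MTATP6P1 (0.70), CENPA (0.57) and SRCIN1 (0.54). The order depended on the libraries that received the member's own chimera: without them MT-CO1 was most like MT-RNR2 (0.67), MT-TL1 (0.65) and QARS (0.64), with MTCO1P12 at 0.58, MT-CO3 was most like MT-ND4L (0.66), and MT-CO2 was still most like MT-ND4 (0.68).

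The genes beside each member on mtDNA differed in how they behaved when that member's chimera was used. MT-ATP6, the mRNA of an ATP synthase subunit, overlaps MT-CO3 by 1 base and fell together with it after COX3 silencing. It stood at 2792, 2866, 3138 and 3540 CPM in the controls and at 2218, 2141, 2637 and 2841 CPM in the silenced libraries, which were below the controls of the same batch but overlapped with those of the other. The log2 fold change was -0.33 (SE 0.055, adjusted p = 0.000696, edgeR), and without the batch term or in batch 2 alone it did not pass (-0.33 and -0.29, adjusted p = 0.507 and 0.181, edgeR). MT-ATP8, which shares that transcript, was at -0.45 (adjusted p = 0.297, edgeR). In the reverse direction, MT-CO3 was at -0.13 after ATP6 silencing, as given above, and at -0.07 after ATP8 silencing. MT-ATP6 itself was at -0.20 and -0.24 in these treatments, without a call (adjusted p = 0.207 and 0.0649, edgeR). The annotated genes of MT-ATP6 and MT-CO3 share a base, so a read across the junction could have been counted on either.

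Upstream of MT-CO1 the opposite was seen. MT-TY, the tyrosine tRNA gene that ends 12 bases before MT-CO1, was counted at 11.8, 11.7, 13.7 and 13.2 CPM in the controls and at 52.2, 63.4, 66.6 and 50.0 CPM after COX1 silencing, with no overlap. The log2 fold changes were 2.21 for MT-TY, 1.33 for the cysteine tRNA gene MT-TC and 1.15 for the asparagine tRNA gene MT-TN (adjusted p = 3.61e-25, 4.05e-15 and 9.94e-07, edgeR). All of these genes are annotated on the strand opposite to MT-CO1. Since the use of strand in counting is not given in the sources used here, reads of these tRNAs and reads of the MT-CO1 strand that run across the same bases cannot be told apart. None of these tRNA genes passed the test after COX2 or COX3 silencing. The other tRNA genes next to the members, MT-TS1, MT-TD and MT-TG with no base between and MT-TK at 25 bases, had no call after any complex IV chimera in edgeR, and MT-TS1, MT-TD and MT-TK had means of 0.324, 0.979 and 0.862 CPM.

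**Figure D4:**
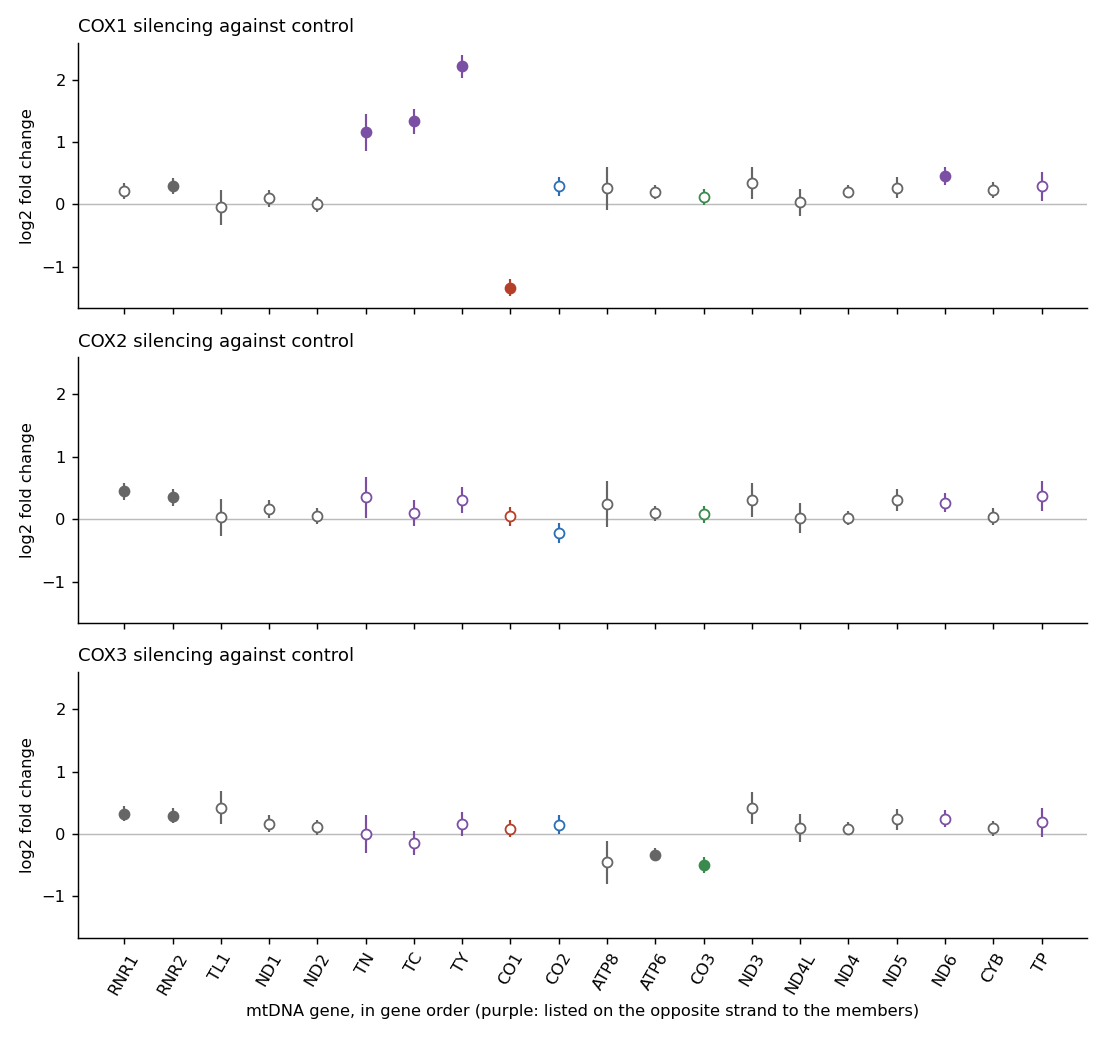
Log2 fold change against the control for the mtDNA genes with a mean of at least 10 CPM, in gene order, after COX1, COX2 and COX3 silencing (panels), with 95% intervals from the edgeR fit. Filled points passed an adjusted p of 0.05, and purple marks genes annotated on the strand opposite to the members. MT-TN, MT-TC and MT-TY rise toward MT-CO1 after COX1 silencing (1.15, 1.33 and 2.21), and MT-ATP6 falls with MT-CO3 after COX3 silencing (-0.33 and -0.49).

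The remaining 10 mtDNA mRNAs, which encode subunits of complexes I, III and V, were mostly higher where a complex IV member was targeted. All 10 were above the control after COX1 and after COX2 silencing, with medians of 0.22 and 0.13. After COX3 silencing 8 of 10 were, with a median of 0.10. The median of all genes was within 0.005 of 0. Under the other chimeras 1 of 10 (ND2) to 7 of 10 (ATP8 and ND3) were above the control, with medians from -0.11 to 0.07. The COX3 count was thus close to some of these, and the mRNAs of a library share its scaling. In the complex IV treatments MT-ND6, the light-strand mRNA of a complex I subunit, passed the adjusted test after COX1 silencing (0.46, SE 0.070, adjusted p = 8.18e-05, edgeR). In batch 2 alone it was at 0.36 (adjusted p = 0.163, edgeR). MT-ATP6 fell after COX3 silencing, and no other passed in these treatments. Counts of both mitochondrial rRNAs were higher too, in poly(A)-enriched libraries whose counts need not reflect rRNA levels. MT-RNR2 was called after each of the 3 chimeras (0.30, 0.35 and 0.30, adjusted p = 0.0299, 0.00580 and 0.0186, edgeR) and MT-RNR1 after COX2 and COX3 silencing (0.45 and 0.33, adjusted p = 0.000320 and 0.00572, edgeR). The rRNAs also passed under chimeras for other mRNAs, MT-RNR1 with higher values after ATP8 (0.75, adjusted p = 3.10e-12, edgeR) and ATP6 silencing (0.52, adjusted p = 8.71e-07, edgeR), and MT-RNR2 after ATP8 (0.31, adjusted p = 0.0188, edgeR) and, lower, after ND2 silencing (-0.36, adjusted p = 0.0116, edgeR). With library sizes from mtDNA genes other than the members, the median of all genes moved to -0.21, -0.16 and -0.12 in the 3 treatments. MT-RNR2 was then no longer called after COX1 or COX3 silencing (0.08 and 0.18). Those library sizes include the reads of both rRNAs, so they are not an independent check of the rRNA values. None of the rRNA calls under the complex IV chimeras passed without the batch term (adjusted p = 0.103 to 0.419, edgeR).

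The nuclear partners of the members gave no calls. None of the 14 nuclear complex IV subunit mRNAs tested, out of 18 listed, was called after COX1, COX2 or COX3 silencing in edgeR or in DESeq2, where 2 of the 14 had no adjusted p. With 0.0543%, 0.469% and 0.306% of all genes called in these contrasts, lists of this size would hold few or no calls at the same share. At an unadjusted threshold 7.44%, 13.6% and 10.4% of all genes had p under 0.05, and 1, 2 and 1 of the subunits had an unadjusted p under 0.05, all higher: COX4I1, a nuclear subunit that joins COX1 early in assembly, was among them each time (0.12, 0.16 and 0.17, adjusted p = 0.646, 0.186 and 0.200, edgeR), chosen here after its values were seen. Their medians were 0.04, 0.13 and 0.07. Among the 30 tested complex IV assembly factors, of 31 listed, none was called by either tool (1, 2 and 1 had no adjusted p in DESeq2), 4, 3 and 2 were under an unadjusted p of 0.05, and the medians were 0.04, 0.07 and 0.07. The 27 factors of mitochondrial mRNA processing, stability and translation gave no call by either tool, with 2, 5 and 2 under an unadjusted p of 0.05 and medians of -0.03, 0.00 and 0.02.

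**Figure D5:**
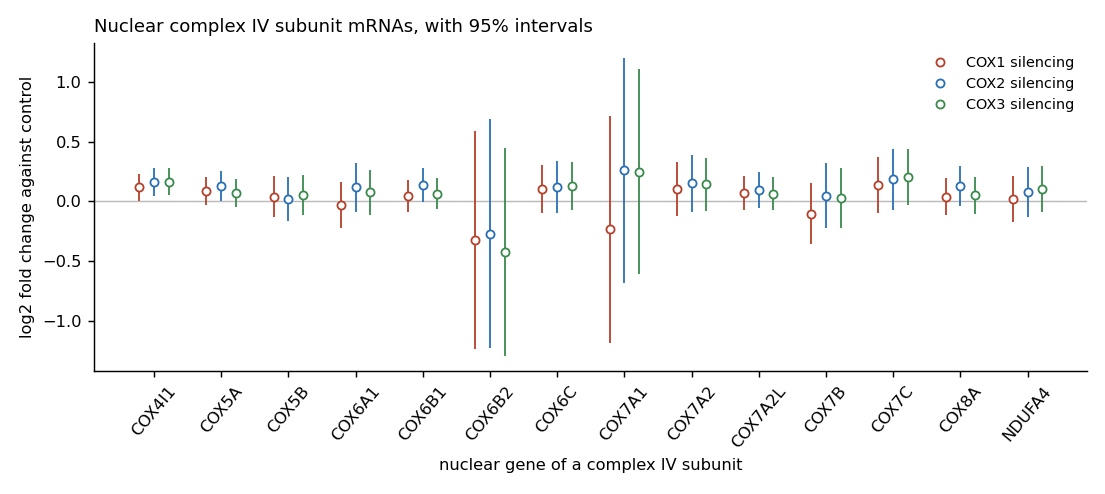
Log2 fold change against the control of the 14 nuclear complex IV subunit mRNAs tested, after COX1, COX2 and COX3 silencing, with 95% intervals from the edgeR fit. All points are open, since none passed an adjusted p of 0.05; the widest intervals belong to COX6B2 and COX7A1, and the values run from -0.42 to 0.26.

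Nuclear copies of mtDNA could share reads with the members. Of the 110 pseudogenes, MTCO1P12 and MTCO1P28 passed the filter on low counts, and MTCO1P12 was called after COX1 and COX3 silencing. MTCO1P12 lies at chr1:631074-632616 on the plus strand and is annotated as an unprocessed pseudogene. Of the 1493 windows of 50 bases in MT-CO1, 49.4% are found unchanged in MTCO1P12, and for MT-CO2 and MT-CO3 the share found in MTCO2P12 and MTCO3P12 is 28.98% and 30.6%. MTCO1P12 stood at 26.8, 24.5, 25.9 and 28.3 CPM in the controls and at 13.6, 11.98, 14.1 and 19.7 CPM after COX1 silencing, with no overlap. The log2 fold change was -0.85 (SE 0.14, adjusted p = 0.000215, edgeR), and in batch 2 alone -0.70 (adjusted p = 0.146, edgeR). After COX3 silencing it rose, to 36.1, 30.02, 35.6 and 56.2 CPM (0.59, SE 0.12, adjusted p = 0.0175, edgeR), but this rise did not pass in either batch alone (0.37 and 0.78, adjusted p = 0.511 and 0.0517, edgeR), without COX3 replicate 1 (0.59, adjusted p = 0.0607, edgeR) or without COX3 replicate 4, the deepest library (0.39, adjusted p = 0.179, edgeR). It was also higher after CYTB and ND5 silencing (0.75 and 0.80, adjusted p = 0.000514 and 8.59e-05, edgeR), where MT-CO1 was at 0.13 and 0.12 without a call. The reads on all 45 listed MT-CO1 pseudogenes came to 0.217% to 0.472% of those on MT-CO1 and its pseudogenes together, and those of MT-CO2 and MT-CO3 to at most 0.0158% and 0.0150%. Adding them to the members left the log2 fold changes of the members under their own chimeras at -1.34, -0.22 and -0.50.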

How the data were processed

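The authors deposited a table of raw read counts per gene for 46 libraries of poly(A)-enriched RNA. The submitters' processing notes name the build GRCh38.p12, R 4.3.0, DESeq2 1.40.2 and limma 3.56.2, and the study describes a batch correction for replicates 1 and 2 against 3 and 4. The aligner, counter and use of strand are not given in the sources used here, and the sources differ on paired or single ends.

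Groups came from the sample labels. Counts were analysed in edgeR 4.0.16 (R 4.3.3) with TMM normalization, filterByExpr (minimum count 10), a model of condition plus batch over all libraries and quasi-likelihood F tests, with Benjamini-Hochberg adjustment over 20272 genes in each contrast. Within-library ratios were compared by exact permutation tests in scipy 1.17.1. Pairs of replicates differed beyond counting noise (chi-square per degree of freedom of 3.31 to 24.5 over 66 pairs). Coordinates and sequences came from GENCODE 29. Genes named are the members, the other mtDNA mRNAs, pseudogenes with a mean of at least 1 CPM, list genes called after COX1, COX2 or COX3 silencing, and the 3 genes most like each member over all genes and outside mtDNA. The flanking tRNA genes and the rRNAs were added after their values were seen. The members and lists were chosen with earlier results of these data known. On simulated data for COX1 silencing the fit recovered 200 of 200 changed genes, 0 in the wrong direction, with 11 false calls. The simulation held no batch effect, and all its changes were larger than those of MT-CO2 and MT-CO3. It therefore does not show how the fit performs at their size. Alternatives included DESeq2 1.42.0, other scalings and filters, each batch alone and leaving out each replicate.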

Additional observations from a re-analysis of the deposited data

Results flagged for a closer look

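Among the 30 groups of 4 libraries examined, 1 had a library far from the others. MT-CO2 after ND4L silencing stood at 4114 CPM in replicate 1, while the other 3 libraries lay between 5073 and 5223 CPM. The gap to the nearest library was 0.865 of the range of the group, above Dixon's 95% critical value for 4 libraries. Chance flags about 1 in 20 such groups. The cause of the flagged value was not tested.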

How the results depend on the processing

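Across 40 results and 953 recomputed values, 835 kept their direction and their side of the threshold, 95 lost a call, 17 gained one, 4 counts moved by over 1.5 times and 2 values changed sign. MT-CO1 after COX1 silencing passed in all 20 alternatives (-1.55 to -1.23). MT-CO2 after COX2 silencing gained a call against the control with library sizes from mtDNA genes other than the members (-0.38), without the filter on low counts (-0.22) and with only the libraries compared (-0.22), and against the other 10 treatments with mtDNA library sizes (-0.37) and in DESeq2 (-0.28). MT-CO3 after COX3 silencing lost its call without the batch term (-0.49). MT-CO2 in the 10 other treatments against the control turned to -0.0058 with mtDNA library sizes, and MT-CO1 in those treatments ranged from -0.044 to 0.013 when each replicate was left out (without control replicates 2 and 1). Of the 33 tests of members against the control, 2 passed in the main model, 1 without the batch term, 4 with mtDNA library sizes, 9 without the filter and 6 with only the libraries compared. The difference among the 10 other treatments gave no call for MT-CO1 without the batch term (F = 4.94) and in batch 2 alone (5.67), for MT-CO2 without the batch term (2.39), in batch 1 (3.64), in batch 2 (4.39) and without COX1 replicate 1 (4.66) or ND2 replicate 1 (4.69), and for MT-CO3 without the batch term (1.60), with RLE size factors (4.55), nuclear library sizes (4.68), pseudogene reads added (4.69), in batch 1 (3.44) and in batch 2 (4.03). Leaving out each replicate gave F of 5.55 to 8.22 for MT-CO1, 4.66 to 7.17 for MT-CO2 and 3.49 to 6.17 for MT-CO3. The MT-CO3 call was lost in 36 of 50 alternatives, and most of those were fits without 1 replicate. In batch 1 alone, which holds 1 COX2 library, the ratios of MT-CO1 to MT-CO2 (0.51) and of MT-CO2 to MT-CO3 (-0.47) after COX2 silencing could not pass (exact permutation test, adjusted p = 0.1). The cause of these changes was not tested.

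Same-numbered replicates of different groups had correlations of -0.48 to 0.58 over 242 pairs once group and batch were removed, with a median of 0.05. Of these pairs, 96 were over 0.1, and 23 of 46 libraries correlated best with their own number. These values do not settle whether same-numbered replicates deviated together beyond the batch. With the replicate number as a block the members' values under their own chimeras were -1.33, -0.22 and -0.49, and MT-CO1 after ND1 silencing was also called (-0.28, adjusted p = 0.0315, edgeR). Genes called against the control after COX1, COX2 and COX3 silencing were 11, 95 and 62 in the main model, 12, 220 and 158 with the block, 24, 309 and 149 in DESeq2, 7, 2 and 2 without the batch term, 96, 321 and 254 without the filter, 15, 341 and 95 with only the libraries compared, 11, 3 and 9 in batch 1, 17, 1 and 7 in batch 2, and 6341, 2396 and 315 with mtDNA library sizes, where the median of all genes shifted by -0.21, -0.16 and -0.12. Leaving out 1 library gave 10 to 14, 2 to 318 and 11 to 53 calls. The members were counted deeply, while some tRNA genes stood at or below 1 CPM, so that few reads back their values. The cause of these low tRNA counts was not tested.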
